A study of Mus musculus with 6 samples.

Results

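The dystrophin-glycoprotein complex was examined through the transcripts of 9 of its genes in soleus muscle: *Dmd*, *Utrn*, *Dag1*, *Sgca*, *Sgcb*, *Sgcd*, *Sgce*, *Sspn* and *Dtnb*. Members were the genes whose symbol in the deposited normalized table equals one of these names, joined to the raw counts by Ensembl identifier. All 9 were found among the 51912 genes of the count table, and all 9 were among the 14696 genes that passed the filter on low counts. None of the 9 differed between genotypes past the threshold, an adjusted p of 0.05 in edgeR, and their levels differed between mice by less than 2-fold.

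The complex spans the sarcolemma, the membrane of the muscle fiber, and ties the actin cytoskeleton to laminin in the basement membrane. Dystrophin binds actin inside the cell and the beta subunit of dystroglycan at the membrane, and the alpha subunit of dystroglycan binds laminin outside through sugar chains built by dedicated enzymes. The sarcoglycans and sarcospan form a subcomplex that holds dystroglycan in place, and dystrobrevins and syntrophins are its cytoplasmic partners. Loss of dystrophin causes Duchenne muscular dystrophy, and loss of sarcoglycans causes limb-girdle dystrophies.

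RNA came from whole soleus, a calf muscle rich in slow fibers, of 3 Mustn1 KO-first heterozygous (HET) and 3 wild-type (WT) mice, aged 8 weeks, of strain C57BL6/N, with 1 library per mouse. The study asked how the loss of 1 *Mustn1* allele changes gene expression in muscle. HET mice carry 1 *Mustn1* tm1a allele, in every cell of the body, in which exon 1 is spliced into a lacZ trapping element that also holds a neomycin resistance gene. The WT mice were littermates without that allele, and no group received a treatment. In bulk RNA from whole muscle, fewer cells of a type and less RNA per cell cannot be told apart.

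Libraries held between 26790075 and 50368796 reads on genes. *Mustn1* was read between 452 and 574 times in HET and between 691 and 1504 times in WT mice. Its log2 fold change, HET over WT, was −0.96 (SE, the standard error, 0.15, edgeR adjusted p = 0.0452). The labels give all 6 mice as male, yet *Xist* had from 3858 to 9154 reads per mouse and 4 genes of the Y chromosome had from 0 to 12 reads in total, so the labelled sex and these reads disagree in both genotypes. *Dmd* is the one member on the X chromosome. As a check of the tissue, 10 myofiber markers summed to between 98677 and 113157 CPM (reads scaled to library size with TMM factors) in HET and between 104909 and 107437 CPM in WT mice. HET mouse 2 stood apart from the other HET mice, with a chi-square per gene of 42.1 and 46.8 against them. The other pairs of mice of the same genotype lay between 16.1 and 27.1, where repeated counting of 1 sample gives about 1. Values are therefore also given without this mouse where it decides them.

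Coordinates are those of GRCm38. By the exons of the count table, *Dmd* (ENSMUSG00000045103) runs from 82948870 to 85206141 on the X chromosome and *Utrn* (ENSMUSG00000019820) from 12382188 to 12869365 on chromosome 10. *Dag1* (ENSMUSG00000039952) runs from 108204634 to 108263958 on chromosome 9. *Sgca* (ENSMUSG00000001508) and *Sgcd* (ENSMUSG00000020354) share chromosome 11, from 94962791 to 94976327 and from 46896253 to 47988969. *Sgce* (ENSMUSG00000004631) and *Sspn* (ENSMUSG00000030255) share chromosome 6, from 4674350 to 4747207 and from 145931641 to 145965223. *Sgcb* (ENSMUSG00000029156) lies on chromosome 5 from 73632749 to 73647790, and *Dtnb* (ENSMUSG00000071454) on chromosome 12 from 3572381 to 3781796. Counts sum all exons of a gene, so the short and long products of *Dmd* and the splice forms of the dystrobrevins are counted together. No exon of a member shared bases with another gene on the same strand, and 69 exon bases of *Sspn* lie opposite *Sspnos*.

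The starts of 3 members are shown because *Sgca* and *Dag1* had the highest levels per length and *Dmd* encodes the protein that gives the complex its name. Each sequence is the 250 bases before an annotated RefSeq start in GRCm38.p6, 5′ to 3′ on the strand of the gene, from chrX:82948620-82948869 (plus), chr11:94976328-94976577 (minus) and chr9:108263959-108264208 (minus). Capitals mark CANNTG, the E-box letters that myogenic basic helix-loop-helix factors bind, which read as the same pattern on both strands.
Dmd: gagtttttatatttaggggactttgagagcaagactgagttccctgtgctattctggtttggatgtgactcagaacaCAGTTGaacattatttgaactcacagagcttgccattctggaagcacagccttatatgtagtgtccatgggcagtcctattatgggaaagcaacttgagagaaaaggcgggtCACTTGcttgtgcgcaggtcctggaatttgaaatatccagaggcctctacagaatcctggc
Sgca: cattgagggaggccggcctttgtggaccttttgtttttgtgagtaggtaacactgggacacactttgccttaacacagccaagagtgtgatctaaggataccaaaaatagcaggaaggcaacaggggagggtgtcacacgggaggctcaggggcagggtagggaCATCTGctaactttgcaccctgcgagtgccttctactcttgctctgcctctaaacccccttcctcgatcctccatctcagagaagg
Dag1: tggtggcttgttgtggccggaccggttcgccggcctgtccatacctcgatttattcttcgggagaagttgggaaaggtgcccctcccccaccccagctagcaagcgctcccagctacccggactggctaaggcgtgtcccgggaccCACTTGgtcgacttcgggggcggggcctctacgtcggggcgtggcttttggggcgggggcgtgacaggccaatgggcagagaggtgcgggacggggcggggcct

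E-box letters stood 2 times before *Dmd* and 1 time each before *Sgca* and *Dag1*, and 66.2% of the 32851 windows of this length in the table hold at least 1. The pair CG stood 2 times before *Dmd*, 4 times before *Sgca* and 21 times before *Dag1*, against a median of 6. The GC box GGGCGG, searched on both strands, stood 3 times before *Dag1* and 0 times before *Dmd* and *Sgca*, and 32.7% of windows hold it. The TATA box TATAAA, also searched on both strands, stood 1 time before *Dmd* and 0 times before the other two, against 12.4% of windows. The table also holds a second start of *Dmd*, whose window at chrX:85048045-85048294 has 3 GC boxes, 7 CG pairs, 0 E-boxes and 0 TATA boxes. A second window of *Dag1*, at chr9:108263816-108264065, has 36 CG pairs. It overlaps the first, and its 3 GC boxes and 1 E-box are those already counted there. These matches describe the letters only and were not related to the levels. The table held entries for 8 of the 9 members, the exception being *Sgce*.

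The members covered a wide range of levels. On the scale of CPM per kb of exon, a level that can be compared between genes, *Sgca*, the muscle-specific alpha-sarcoglycan, was highest at 77.6 ± 11.2 in HET and 83.4 ± 8.07 in WT mice (SD, n = 3 each). *Dag1*, which encodes both dystroglycan subunits, followed at 72.4 ± 3.30 in HET and 70.6 ± 2.37 in WT mice (SD, n = 3 each). These 2 genes overlapped over the 6 mice and stood above 97.4% and 97.0% of all genes tested.

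*Sspn*, the tetraspanin-like membrane protein sarcospan, had 38.6 ± 1.04 CPM per kb in HET and 40.3 ± 1.19 in WT mice (SD, n = 3 each). *Sgcb*, beta-sarcoglycan, had 36.6 ± 2.09 in HET and 38.1 ± 2.89 CPM per kb in WT mice (SD, n = 3 each), and its range over the 6 mice overlapped that of *Sspn*. *Sspn* lay 1.81-fold below *Dag1*, and neither gene overlapped *Dag1* in any mouse. *Dmd* came next at 10.4 ± 1.03 in HET and 10.9 ± 0.325 CPM per kb in WT mice (SD, n = 3 each), 3.49-fold below *Sgcb*.

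*Utrn* encodes utrophin, the autosomal paralog of dystrophin, which in adult muscle is concentrated at the neuromuscular junction. It had 4.46 ± 0.267 CPM per kb in HET and 4.75 ± 0.355 in WT mice (SD, n = 3 each), and *Sgcd*, delta-sarcoglycan, had 4.43 ± 0.298 and 4.02 ± 0.303. The mice of these 2 genes overlapped, and both were below every value of *Dmd*. *Sgce*, the epsilon-sarcoglycan found in many tissues, was 6.25-fold below *Sgcd* at 0.708 ± 0.112 in HET and 0.645 ± 0.0567 CPM per kb in WT mice (SD, n = 3 each). *Dtnb*, beta-dystrobrevin, was lowest at 0.143 ± 0.0283 and 0.159 ± 0.0324, and only 6.36% of the genes tested lay below it.

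The order depends in part on which length is used, since the exons of a gene added up can be longer than any transcript. Per kb of the longest coding transcript in GENCODE M21, *Sgcd* rose from 4.23 to 14.2 CPM per kb over the 6 mice and passed *Utrn*, which then had 6.36. *Sgce* moved from 0.676 to 4.04 CPM per kb, because its exons sum to 10612 bases and its longest coding transcript has 1776. The other 7 members kept their place, and with this length *Sgcd* overlapped *Dmd*.

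**Figure D1:**
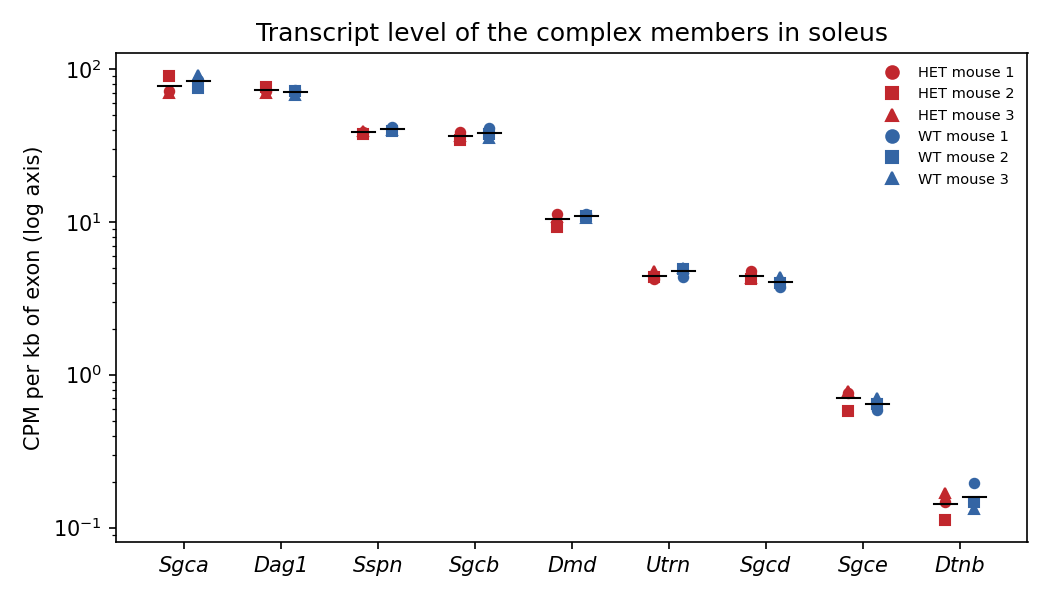
Level of each complex member in CPM per kb of exon on a log axis, for each HET (red) and WT (blue) mouse, with lines at the means. *Sgca* and *Dag1* lie near the top at 80.5 and 71.5 over all mice and *Dtnb* at the bottom at 0.151, and for every gene the red and blue points overlap.

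HET and WT mice were then compared for each member by edgeR's quasi-likelihood test, fitted on all 14696 genes. None of the 9 members passed an adjusted p of 0.05, and 0 of them had an unadjusted p below 0.05. Over all genes tested, 0.15% passed the adjusted threshold (0.143% higher and 0.0068% lower in HET), 7.76% had an unadjusted p below 0.05, and 13.6% showed genotypes that did not overlap. Of the members, 0 showed genotypes that did not overlap. Their adjusted p-values lay between 0.852 and 0.966, with 3 log2 fold changes above 0 and 6 below. The median log2 fold change was −0.06, against −0.02 over all genes, and the median size of the change was 0.09 against 0.12. Members and all genes were not matched for level in these medians.

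The intervals say how large a change these mice leave room for. For 8 of the 9 members the 95% interval of the ratio of HET to WT, taken for each gene alone from edgeR's fit, lay within 1.5-fold in either direction. Across these 8 the bounds ran from 0.778 to 1.40 times the WT level. The exception was *Dtnb*, with bounds of 0.606 and 1.38, which was read only between 29 and 71 times per library. Of the 8 tested other genes of the complex, described below, 4 had an interval within 1.5-fold. The share over all genes was not counted, so the count of members is not read as particular to them. Among all genes tested the median SE was 0.15, and among the members it was 0.09, without matching genes for their level.

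Dystrophin and utrophin showed no difference beyond the spread between mice. *Dmd* was at 267, 221 and 258 CPM in HET mice 1 to 3 and at 268, 260 and 253 CPM in WT mice 1 to 3. HET mouse 2 was the lowest of the 6, and the other HET mice lay within the range of the WT mice. The log2 fold change was −0.07 (SE 0.09, 95% interval −0.27 to 0.14, edgeR adjusted p = 0.933), and without HET mouse 2 it was 0.024.

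*Utrn* was at 72.8, 74.5 and 81.4 CPM in HET mice and at 74.3, 84.7 and 84.9 CPM in WT mice. WT mice 2 and 3 were highest, while WT mouse 1 lay among the HET mice. HET over WT came to −0.09 on the log2 scale (SE 0.09, 95% interval −0.29 to 0.11, edgeR adjusted p = 0.895). Utrophin can take the place of dystrophin at the sarcolemma, so the balance of the pair was also measured within each mouse. The log2 ratio of *Utrn* to *Dmd* per kb was −1.40, −1.09 and −1.19 in HET mice and −1.37, −1.14 and −1.10 in WT mice. *Dmd* was thus 2.34-fold above *Utrn* per kb in HET and 2.31-fold in WT mice, and the genotypes overlapped. The difference of the log2 ratios was −0.02 (two-sided exact permutation test, p = 0.8, adjusted over 3 ratios 0.8), where 3 mice against 3 cannot give a p below 0.1.

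*Dag1*, the laminin receptor of the complex, was the member read most often, with between 12798 and 21310 reads per library. It was at 456, 483 and 442 CPM in HET mice and at 460, 454 and 432 CPM in WT mice. HET mouse 2 was highest and WT mouse 3 lowest, and the genotypes overlapped. The log2 fold change was 0.04 (SE 0.08, 95% interval −0.15 to 0.22, edgeR adjusted p = 0.966), the largest adjusted p of the 9. The sign turned when the trend of each library on gene length or on GC content was removed, to −0.012 and −0.030, and the value was 0.013 without HET mouse 2 and 0.0092 without WT mouse 3.

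The sarcoglycans did not share a direction. *Sgca* was at 125, 157 and 121 CPM in HET mice and at 146, 130 and 158 CPM in WT mice. HET mouse 2 was close to the highest WT mouse, and the other HET mice were the lowest of the 6. This gave −0.11 on the log2 scale (SE 0.12, 95% interval −0.36 to 0.15, edgeR adjusted p = 0.912), and −0.22 without HET mouse 2. Its adjusted p under 19 alternatives ran from 0.377, after removal of the trend on GC content, to 0.9999, and the former was the lowest of any member.

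*Sgcb* was at 157, 140 and 148 CPM in HET mice and at 166, 153 and 143 CPM in WT mice, with overlapping genotypes and a log2 fold change of −0.06 (SE 0.09, edgeR adjusted p = 0.943). It was −0.0055 without HET mouse 2 and −0.0011 without WT mouse 1. *Sgcd* was at 39.4, 35.0 and 35.4 CPM in HET mice and at 30.8, 32.9 and 35.8 CPM in WT mice. HET mouse 1 was highest and WT mouse 1 lowest, and WT mouse 3 lay above 2 of the HET mice. This was the member with the smallest p, a log2 fold change of 0.14 (SE 0.10, 95% interval −0.08 to 0.36, edgeR unadjusted p = 0.185, adjusted p = 0.852).

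*Sgce* was at 8.07, 6.15 and 8.32 CPM in HET mice and at 6.25, 6.81 and 7.46 CPM in WT mice. HET mice 3 and 1 were the highest of the 6 and HET mouse 2 the lowest. The log2 fold change was 0.14 (SE 0.16, 95% interval −0.21 to 0.48, edgeR adjusted p = 0.916), and it was 0.27 without HET mouse 2, where the adjusted p from edgeR was 0.649, the lowest of its 19 alternatives, which reached 0.9999.

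The alpha and epsilon sarcoglycans are paralogs, and epsilon-sarcoglycan takes the place of alpha in the complex of smooth muscle and other tissues. The log2 ratio of *Sgce* to *Sgca* per kb of exon was −6.57, −7.29 and −6.48 in HET mice and −7.16, −6.87 and −7.02 in WT mice. HET mice 1 and 3 lay above all WT mice and HET mouse 2 below them. *Sgca* was 110-fold above *Sgce* in HET and 129-fold in WT mice, or 18.5-fold and 21.8-fold per kb of the longest coding transcript. The genotypes differed by 0.24 in the log2 ratio (two-sided exact permutation test, p = 0.4, adjusted over 3 ratios 0.8), and by 0.49 without HET mouse 2. Of 9 genes listed as markers of vascular smooth muscle, 0 passed the threshold, with a median log2 fold change of 0.01. Most of their summed level was *Des*, which myofibers also express. *Myh11*, the smooth muscle myosin, was at 37.6, 50.8 and 34.7 CPM in HET mice. In WT mice it was at 24.9, 48.7 and 42.4 CPM, and the genotypes overlapped. *Myocd*, a smooth muscle coactivator, was at only 0.32, 0.30 and 0.21 CPM in HET and 0.50, 0.71 and 0.75 CPM in WT mice. It had −1.27 on the log2 scale (SE 0.39, edgeR adjusted p = 0.323). Its genotypes did not overlap, as for 13.6% of all genes tested. Both genes were singled out after their values were seen.

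*Sspn* varied least of the members between mice, at 194, 187 and 198 CPM in HET and at 208, 196 and 200 CPM in WT mice. The highest mouse was 1.11-fold above the lowest, and HET mouse 3 lay above WT mouse 2, so that the genotypes overlapped. HET over WT came to −0.06 on the log2 scale (SE 0.08, 95% interval −0.23 to 0.11, edgeR adjusted p = 0.923), and to −0.029 without HET mouse 2. *Dtnb* varied most, with a 1.73-fold range, at 1.42, 1.08 and 1.62 CPM in HET and at 1.87, 1.42 and 1.28 CPM in WT mice. With few reads, the genotypes overlapped. HET over WT was −0.13 on the log2 scale (SE 0.27, edgeR adjusted p = 0.962), 0.020 without HET mouse 2 and 0.043 without WT mouse 1.

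**Figure D2:**
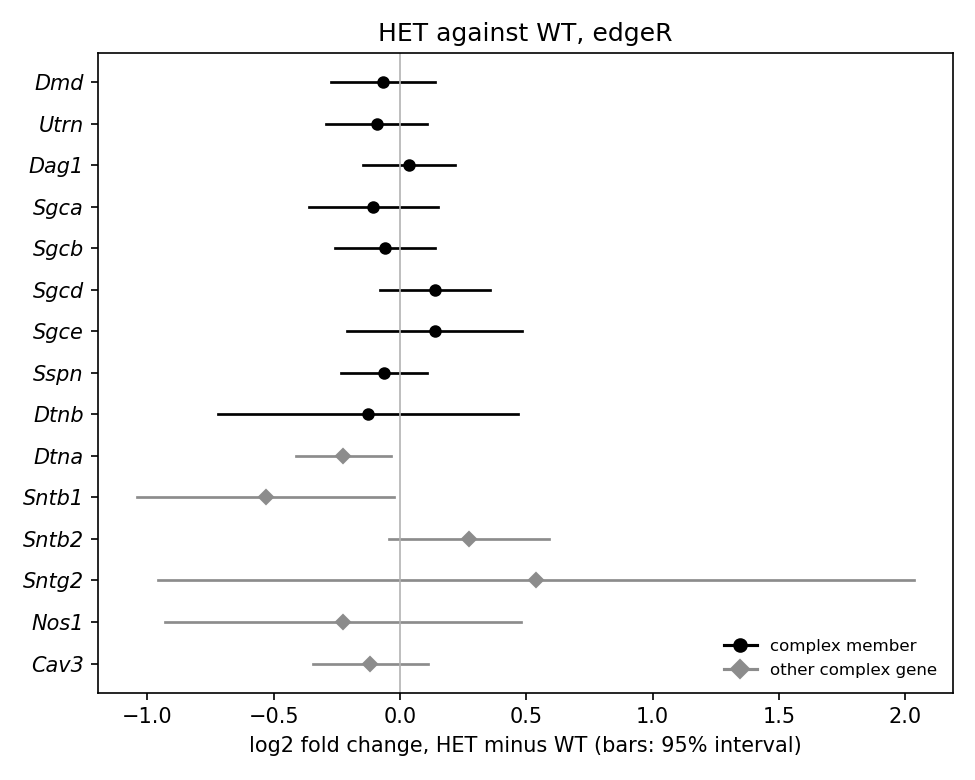
Log2 fold change of HET against WT from edgeR (horizontal axis) with its 95% interval for the 9 complex members (black) and 6 of the 8 tested other genes of the complex (grey). All 9 black intervals include 0, the widest being that of *Dtnb* from −0.72 to 0.47, and the grey intervals of *Dtna* and *Sntb1* lie below 0.

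Mouse by mouse, the members did not move as a block. HET mouse 2 was the lowest of the 6 for 5 members (*Dmd*, *Sgcb*, *Sgce*, *Sspn* and *Dtnb*) and the highest for *Dag1*. WT mouse 1 was the highest for 4 (*Dmd*, *Sgcb*, *Sspn* and *Dtnb*) and the lowest for *Sgcd*. The summed level of the 9 members lay between 1293 and 1320 CPM in HET and between 1315 and 1362 CPM in WT mice, which overlap. Leaving out HET mouse 2 moved the median log2 fold change of the members from −0.06 to 0.013. Leaving out WT mouse 1 moved it to −0.0011. In either case 0 of the 9 passed the threshold. Over all genes tested, 15 of 15189 passed without HET mouse 2 and 0 of 15180 without WT mouse 1. The count of 0 therefore does not set the members apart.

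**Figure D3:**
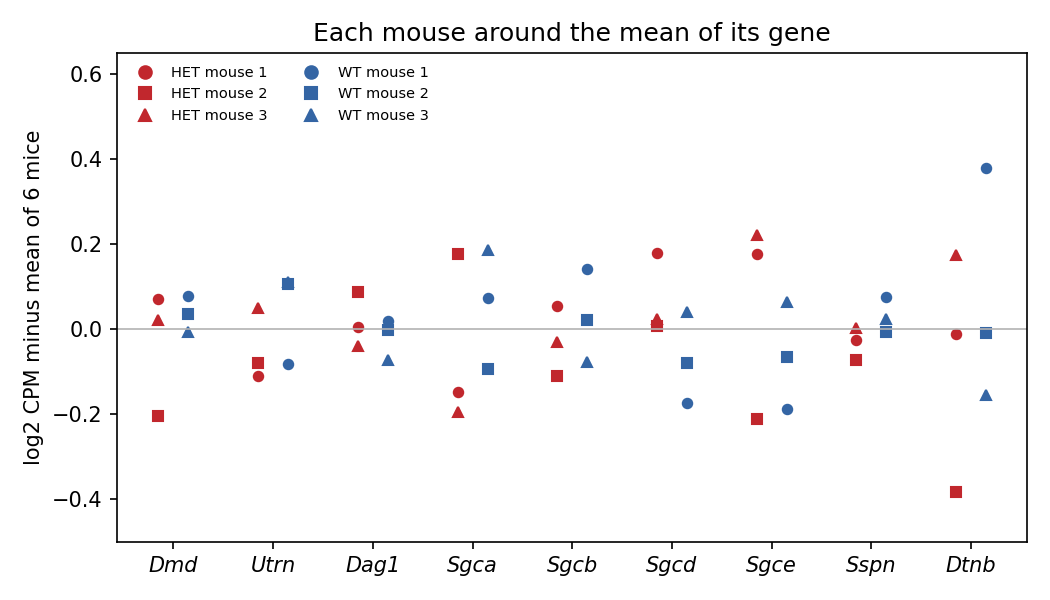
Log2 CPM of each mouse minus the mean of the 6 mice, for each complex member, in HET (red) and WT (blue). The square of HET mouse 2 lies at the bottom for 5 of the 9 genes, at −0.20 for *Dmd* and −0.21 for *Sgce*, and red and blue overlap for all.

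Over the 6 mice, the profiles most like that of *Dmd* in log2 CPM among the 14695 other genes tested were those of *Zfp970*, *Phf20l1* and *Nedd1*, each with a Pearson r of 0.997 and a Spearman rho of 1, 1 and 0.943. With the 2 mice farthest from the median of *Dmd* left out, r was 0.997, 0.954 and 0.970. Those most like *Utrn* were *Zbtb43*, *Dclre1b* and *Vsig2* (r = 0.977, 0.972 and 0.966, rho = 0.943, 0.771 and 0.771). Those most like *Sgca* were *Flot2*, *Mob2* and *Gpc1* (r = 0.996, 0.994 and 0.992, rho = 0.943, 1 and 1). These are the highest of many values, each over only 6 points that share their libraries, and none is a member or another gene of the complex.

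Of 10 other genes of the complex, 8 were tested and 0 passed the threshold, with 2 log2 fold changes above 0, 6 below and a median of −0.11. *Sgcz*, zeta-sarcoglycan, had between 0 and 3 reads per library and *Sntg1*, a gamma-syntrophin, between 0 and 6, and neither was tested.

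*Dtna*, alpha-dystrobrevin, the main dystrobrevin of muscle, was the 1 gene of these 8 whose genotypes did not overlap, where 13.6% of all genes tested did not. It was at 116, 106 and 105 CPM in HET and at 135, 124 and 124 CPM in WT mice, with the HET mice all below the WT mice. The log2 fold change was −0.22 (SE 0.08, 95% interval −0.41 to −0.04), and the edgeR p of 0.0234 did not pass after adjustment over all genes (edgeR adjusted p = 0.488). The log2 ratio of *Dtnb* to *Dtna* per kb was −5.54, −5.80 and −5.21 in HET mice and −5.35, −5.63 and −5.78 in WT mice. Beta-dystrobrevin was 45.8-fold below alpha-dystrobrevin in HET and 48.2-fold in WT mice, and the log2 ratios differed by 0.07 (two-sided exact permutation test, p = 0.8, adjusted over 3 ratios 0.8).

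**Figure D4:**
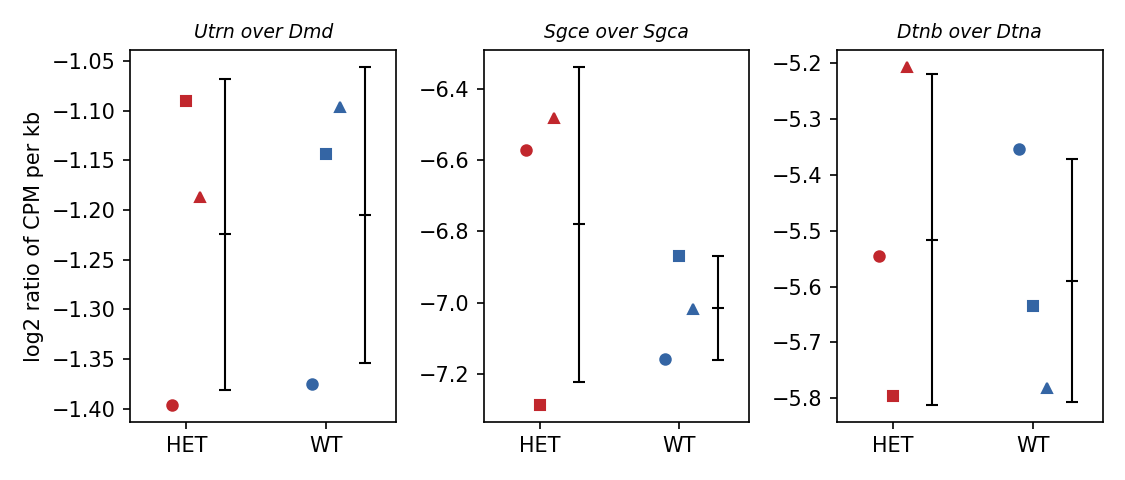
Log2 ratio of CPM per kb of exon for 3 pairs of related genes in each mouse, HET (red) and WT (blue), with mouse 1 as a circle, mouse 2 as a square, mouse 3 as a triangle and the mean and SD of 3 mice beside the points. In all 3 panels the genotypes overlap, and in the middle panel HET mouse 2 at −7.29 lies below the WT mice while the other HET mice lie above them.

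The syntrophins are adaptor proteins bound to dystrophin and the dystrobrevins. *Sntb1*, a beta-syntrophin, was at 2.11, 3.24 and 2.12 CPM in HET against 3.51, 2.98 and 4.15 CPM in WT mice. HET mouse 2 lay above WT mouse 2, and the log2 fold change was −0.53 (SE 0.23, edgeR unadjusted p = 0.0417, adjusted p = 0.614). *Sntb2* had a log2 fold change of 0.27 (SE 0.14, edgeR adjusted p = 0.759), or 0.42 without HET mouse 2, and *Sntg2* one of 0.54 (SE 0.67, edgeR adjusted p = 0.924) on at most 14 reads per library.

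*Nos1*, the neuronal nitric oxide synthase that the complex anchors at the sarcolemma, had a 2.04-fold range between mice, the widest of the tested genes of the complex other than *Sntg2*. It was at 24.6, 38.3 and 25.7 CPM in HET and at 24.4, 49.8 and 29.4 CPM in WT mice, with the second mouse of each genotype highest (log2 fold change −0.23, SE 0.30, edgeR adjusted p = 0.931). Without HET mouse 2 it was −0.44, and over 19 alternatives it ran from −0.44 to 0.13. *Cav3*, the muscle caveolin, was at 67.2, 58.7 and 56.9 CPM in HET and at 72.8, 59.4 and 66.1 CPM in WT mice (log2 fold change −0.12, SE 0.10, edgeR adjusted p = 0.885).

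Genes that act with the complex were described as lists, beside the −0.02 median over all genes. All 17 enzymes that build the laminin-binding sugar of dystroglycan were tested, and 0 passed, with a median log2 fold change of −0.01 and 8 above 0. The highest was 0.28 for *Gmppb*, which makes GDP-mannose (SE 0.13, edgeR adjusted p = 0.658). Of the genes for costameres and cytoskeletal linkers, which join the sarcolemma to the sarcomere, 0 of 20 tested passed. Their median was 0.02, from −0.12 for *Fermt2*, kindlin-2 (SE 0.09, edgeR adjusted p = 0.863), to 0.49 for *Krt19* (SE 0.58, edgeR adjusted p = 0.922).

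The 13 tested extracellular ligands of dystroglycan had a median log2 fold change of 0.21, with 9 above 0 and 0 past the threshold. Of the 13, 3 had an unadjusted p below 0.05 in edgeR, against 7.76% of all genes tested. The median of the ligands was 0.103 without HET mouse 2 and 0.099 without WT mouse 1. *Lama2*, the laminin chain of the muscle basement membrane and the chief partner of the complex outside the fiber, was at 114, 101 and 116 CPM in HET and at 87.7, 95.1 and 97.7 CPM in WT mice. The HET mice all lay above the WT mice, by 0.24 on the log2 scale (SE 0.09, edgeR unadjusted p = 0.0226, adjusted p = 0.482).

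The highest was *Bgn*, the proteoglycan biglycan that binds dystroglycan and sarcoglycans. *Bgn* was at 117, 141 and 174 CPM in HET and at 69.6, 95.4 and 104 CPM in WT mice, without overlap (log2 fold change 0.68, SE 0.18, edgeR adjusted p = 0.254). It passed the threshold with DESeq2 and in edgeR without a filter.

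The 10 membrane repair genes had a median of 0.21, with 8 above 0 and 0 past the threshold. Of the 10 genes, 5 had an unadjusted p below 0.05 in edgeR, against 7.76% of all genes tested. The median of the list was 0.126 with the GC offset, which kept all 10. It was 0.072 with the genes of the deposited normalized table, a fit that lacked part of the 10. The lowest log2 fold change was −0.03 for *Capn3*, the muscle calpain (SE 0.08, edgeR adjusted p = 0.969). The highest was 0.81 for *Anxa1*, an annexin (SE 0.17, edgeR adjusted p = 0.108). *Dysf*, dysferlin, the membrane fusion protein of muscle, had a log2 fold change of 0.03 (SE 0.09, edgeR adjusted p = 0.969), and its relative *Myof*, myoferlin, one of 0.67 (SE 0.15, edgeR adjusted p = 0.131). *Anxa1* and *Myof* also passed with DESeq2 and without a filter. *Dysf*, *Myof* and *Lama2* were singled out after their values were seen.

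Of the genes of regeneration and denervation, 0 of 11 tested passed, with a median of 0.16, which was 0.039 without HET mouse 1 and 0.070 without WT mouse 3. They ran from −0.26 for *Chrna1*, an acetylcholine receptor subunit (SE 0.10, edgeR adjusted p = 0.498), to 0.63 for *Chrng*, the fetal receptor subunit (SE 0.44, edgeR adjusted p = 0.852).

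Levels of markers of other cell types are set beside the ligands and the membrane repair genes. Macrophage markers summed to between 93.2 and 131 CPM in HET and between 54.0 and 62.7 CPM in WT mice, and 5 of 12 passed the threshold with edgeR, all higher in HET. *Lyz2* and *Mrc1* were the largest parts of that sum. *Mrc1* overlapped between genotypes (log2 fold change 0.33, SE 0.26, edgeR adjusted p = 0.872). *Mertk* was the 1 macrophage marker below 0, at −0.10 (SE 0.19, edgeR adjusted p = 0.954). Fibroblast markers summed to between 2679 and 3787 CPM in HET and between 1283 and 2069 CPM in WT mice, with 1 of 12 higher past the threshold. Tenocyte markers summed to between 372 and 664 CPM in HET and between 120 and 299.6 CPM in WT mice, with 0 of 8 past the threshold. *Thbs4* and *Fmod* were the largest parts of the tenocyte sum. All 8 were above 0, the lowest being *Scx* at 0.15 with overlapping genotypes (SE 0.15, edgeR adjusted p = 0.893). No marker of these 3 lists was at 0 reads, and the part of these cells in the values of *Bgn*, *Lama2*, *Anxa1* and *Myof* was not tested.

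Pericyte markers summed to between 974 and 1142 CPM in HET and between 1164 and 1280 CPM in WT mice. Satellite cell markers summed to between 116 and 127 CPM in HET and between 130.2 and 138 CPM in WT mice. Past the threshold were 0 of 7 and 0 of 6. *Rgs5* made up most of the pericyte sum, with a log2 fold change of −0.33 (SE 0.11, edgeR adjusted p = 0.385). The median of that list was −0.04, with 2 genes above 0 and 5 below. *Sdc4* was the largest part of the satellite cell sum, at −0.18 on the log2 scale (SE 0.10, edgeR adjusted p = 0.760). The median of that list was −0.20, with 2 genes above 0 and 4 below. Endothelial, Schwann and adipocyte markers overlapped between the genotypes in their summed level, with 0 of 10, 0 of 8 and 0 of 6 past the threshold. Most of the adipocyte sum was *Fabp4*, with a log2 fold change of −0.13 (SE 0.11, edgeR adjusted p = 0.878), while the other 5 adipocyte markers were above 0 and the median of the list was 1.07. None of the markers of these 5 lists was at 0 reads.

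**Figure D5:**
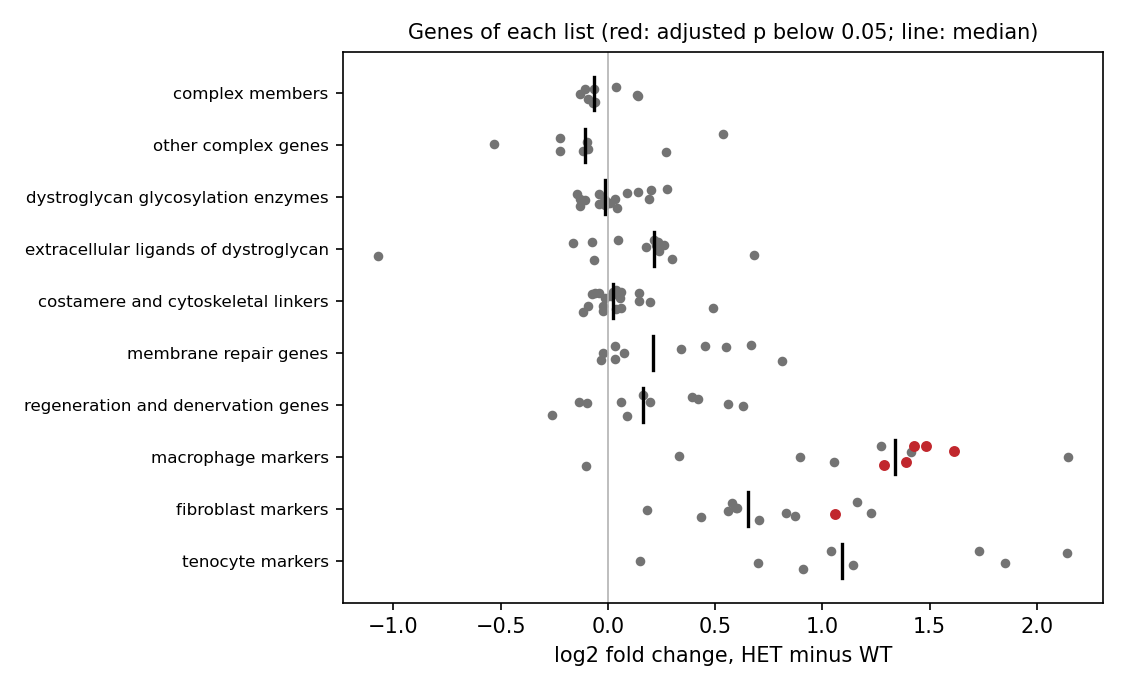
Log2 fold change of HET against WT from edgeR (horizontal axis) for every tested gene of each list, with a line at the median and genes past an adjusted p of 0.05 in red. The members lie between −0.13 and 0.14, and none of the complex and partner lists holds a red point, while 5 macrophage markers and 1 fibroblast marker are red.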

How the data were processed

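Soleus RNA of 3 HET and 3 WT mice was sequenced as poly-A libraries. Per the labels and file headers, the authors aligned reads to GRCm38.p6 with STAR 2.7.3a and made the deposited raw counts per gene with featureCounts 2.0.3, reverse-stranded. The deposited normalized table holds a signal, the raw count over 1 DESeq2 size factor per library. Multiplied back, 100% of its values gave whole reads within 0.001 and equalled the raw counts, and edgeR called 29 genes on them. Another deposited file holds the authors' own DESeq2 comparison and was not used.

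Raw counts were tested in R 4.3.3 with edgeR 4.0.16 (filterByExpr with a minimum of 10, TMM, robust quasi-likelihood, genotype only, Benjamini-Hochberg). DESeq2 1.42.0, limma 3.58.1 (voom), other scalings, filters, a length or GC offset, the replicate number as a block and each mouse left out were alternatives. CPM use TMM factors. Replicates are labelled as separate samples, and the labels do not say whether their litters differed, so p-values measure the spread between these mice. The rule named all members and other complex genes, with the ends and calls of each further list, and 4 of the genes it takes are not reported here. Members and lists were chosen with earlier results of these data known. On simulated counts, edgeR recovered 91.0% of 100 genes changed 2 log2 units and 72.0% of 100 changed 1, with 13 false calls among 14500 genes tested.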

Additional observations from a re-analysis of the deposited data

How the results depend on the processing

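No member passed the threshold under any of the 19 alternatives (171 values, lowest adjusted p 0.377), and 7 of the 171 changed sign. In the main fit only 0.15% of all genes passed, and in several fits with 1 mouse left out 0 did. That no member passed therefore does not set the members apart. The log2 fold change of *Dag1* went from 0.04 to −0.012 with the length offset and −0.030 with the GC offset, and to −0.013 and −0.028 when the replicate block was added. With 1 mouse left out, *Dmd* ranged from −0.12 to 0.024, *Dtnb* from −0.26 to 0.043, the difference in log2 *Utrn* over *Dmd* from −0.10 to 0.066, that in *Dtnb* over *Dtna* from −0.081 to 0.21 and that in *Sgce* over *Sgca* from 0.09 to 0.49. Over all alternatives the median log2 fold change of the ligands ranged from 0.099 to 0.26, of membrane repair genes from 0.072 to 0.29, of regeneration genes from 0.039 to 0.26, of glycosylation enzymes from −0.077 to 0.040 and of costamere genes from −0.058 to 0.052. The 0.072 came from the genes of the deposited normalized table, a fit that lacked part of the membrane repair genes. The next lowest median of that list was 0.126, with the GC offset. The order of members kept 7 of 9 places with transcript length. It kept all 9 with RLE scaling, which gives each library 1 factor for all genes and so could hardly change the order.

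The number of genes called, 22 in all, was 404 without a filter, 226 with DESeq2, 3 with limma-voom, 6 without robust estimation and 9 with the GC offset. It ranged from 0 to 83 with 1 mouse left out, the highest without WT mouse 3, and was 0 without HET mouse 1, HET mouse 3, WT mouse 1 or WT mouse 2, where between 768 and 1242 genes had an unadjusted p below 0.05 in edgeR. Genes of the partner lists called, 0 in all, were 5 without a filter (*Bgn*, *Anxa1*, *Anxa2*, *Myof* and *Myh8*) and 3 with DESeq2 (*Bgn*, *Anxa1* and *Myof*).

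With the replicate number as a block, 116 genes were called, 123 with the length offset added and 101 with the GC offset added, and 1, 1 and 2 genes of the partner lists (*Bgn* in each, and *Anxa1* with the GC offset). The labels do not tie equal numbers to a litter. Deviations of same-numbered mice correlated at 0.20, −0.01 and −0.03, so the mice were not treated as pairs. HET mice 2 and 3 correlated best with another number. The cause of these differences was not tested. For *Dtnb*, few reads limit the precision.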
